A study of Mus musculus with 2 samples.

Results

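Cycling radial glia of the newborn mouse forebrain were taken from 2 droplet libraries of single cells, 1 from wild-type and 1 from Gmnc-/- mice of the C57BL/6J strain at postnatal day 0. The tissue was cortex (lateral and dorsal parts) with hippocampus, and each library pooled 4 animals of 2 litters, with no mark that ties a cell to its animal. Gmnc encodes a regulator of multiciliated cells and of Trp73-expressing Cajal-Retzius neurons, and the series set out to compare the parts that these neurons and Reelin play in shaping the cortex. Cells with 1000 or more unique molecules (UMIs) and under 10% mitochondrial UMIs were kept. Members were selected on 3 or more UMIs of Slc1a3, 2 or more UMIs of Mki67 and Top2a together, and no UMI of Eomes, Dlx1, Dlx2, Gad2, Pdgfra or Foxj1. They numbered 1244 of 37116 kept cells: 349 among 10938 wild-type cells and 895 among 26178 Gmnc-/- cells.

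Radial glia are the dividing stem cells that line the ventricles of the developing brain. Their fibres span the wall and guide migrating neurons, and their divisions give first neurons, often through Eomes-expressing intermediate progenitors, and later glia. Around birth the cortical radial glia turn towards making astrocytes and oligodendrocyte precursors, and some become ependymal cells. Slc1a3 encodes the glutamate transporter GLAST of radial glia and astrocytes, Mki67 and Top2a mark cells in the cycle, and the barred genes mark intermediate progenitors, GABAergic precursors, oligodendrocyte precursors and ciliated cells.

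Each genotype was 1 library, so no test between genotypes was possible and every difference below is one between these libraries. Levels are UMIs summed over members, per 1000000 of their UMIs (CPM). Intervals are 95%, exact, and cover counting error only, and UMIs of 1 library do not show the spread between animals. Members had a median of 13351 UMIs in the wild-type and 8226 in the Gmnc-/- library (ranges 1848 to 91745 and 1141 to 39384), and a median mitochondrial share of 2.36% and 1.16%. The Scrublet caller marked 20 wild-type members (5.73%) and 286 Gmnc-/- members (32.0%) as doublets. Over all kept cells its calls fell short of the expected rate in the wild-type library only. Values without called doublets below therefore compare libraries cleaned to unlike degrees. Cells with Xist and no Y-linked UMI were 257 of the wild-type and 470 of the Gmnc-/- members, and cells with the reverse pattern 60 and 240. The libraries shared 85 barcodes, which included 1 wild-type and 3 Gmnc-/- members. Gmnc itself gave 1 UMI in wild-type and 11 UMIs in Gmnc-/- members. Tags of the 3′ end may lie outside the deleted part, so these UMIs do not check the labels.

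The values that chose the members are given here as a description. Slc1a3 was at 1649 CPM in wild-type and 1587 CPM in Gmnc-/- members, with a median of 20 and 12 UMIs per cell. Mki67, a protein that coats mitotic chromosomes, was at 419.9 and 717 CPM, and Top2a, a topoisomerase that untangles them, at 1064 and 1327 CPM. Just inside the Slc1a3 limit, with 3 UMIs, lay 6 wild-type and 58 Gmnc-/- members, and just outside it, with 2 UMIs, 13 and 68 cells. At the cycling limit, 48 and 141 members had 2 UMIs of the 2 genes, and 141 and 430 cells had 1 and were left out. The barred genes left out another 570 wild-type and 1686 Gmnc-/- cells that met both minimums.

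Other genes of radial glia, which the rule did not use, were present in the members. Vim, the intermediate filament of radial fibres, had a UMI in 86.9% of wild-type and 79.8% of Gmnc-/- members when every cell was thinned to 3000 UMIs. Sox2, a stem cell factor, had one in 70.3% of wild-type and 77.5% of Gmnc-/- members, and Hes5, a target of Notch, in 63.6% of wild-type and 49.2% of Gmnc-/- members. Barcodes of the same libraries with 10 or more UMIs of microglia markers, 367 and 657 after thinning, served as a background. Called doublets were not removed from them. Their UMIs can come from free RNA, from a second cell or from the microglia themselves, which was not tested. They showed Vim in 31.3% and 29.4%, Sox2 in 5.18% and 16.9% and Hes5 in 2.18% and 6.54%. Members lay above this background for all 3 genes. The label radial glia follows the rule, since microglia barcodes cannot set these cells apart from other dividing glial progenitors.

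The share of cycling radial glia differed little between the libraries. Members were 3.19% of kept wild-type cells (2.87 to 3.54%) and 3.42% of kept Gmnc-/- cells (3.20 to 3.65%), a ratio of 1.07 (0.946 to 1.22). Among cells with 3 or more Slc1a3 UMIs and none of the barred genes, members were 22.5% of 1548 wild-type and 24.6% of 3639 Gmnc-/- cells, a ratio of 1.09 (0.963 to 1.24). Both intervals include 1. Their non-cycling counterparts, with 3 or more Slc1a3 UMIs and no Mki67 or Top2a UMI, were 9.67% and 8.84% (ratio 0.914, 0.849 to 0.984), and cycling cells with 2 or more Dlx1 and Dlx2 UMIs were 5.55% and 7.02% (ratio 1.26, 1.15 to 1.39). Depth moved with genotype, and the direction of the members' ratio turned with the cell filter: with 2000 or more UMIs and under 5% mitochondrial UMIs the shares were 4.55% and 3.85% (ratio 0.847, 0.747 to 0.963). The part of depth and dissection in these shares was not tested.

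Members held more UMIs of G2/M genes than of S-phase genes, which is no measure of the share of cells in a phase, since the G2/M list holds more abundant genes. Hmgb2 alone, a chromatin protein in that list, was at 3088 and 2230.1 CPM, against 2036 and 1896 CPM for the whole S-phase list, and non-cycling cells held 519 and 497 CPM of S-phase against 631 and 552 CPM of G2/M genes. In cells thinned to 3000 UMIs, 283 of 343 wild-type members (82.5%) and 687 of 852 Gmnc-/- members (80.6%) held more UMIs of 33 G2/M genes than of 26 S-phase genes. The reverse held for 52 (15.2%, 11.5 to 19.4%) and 142 (16.7%, 14.2 to 19.3%). The median member held 4 S-phase UMIs in either library, with 31 G2/M UMIs for the wild type against 24 for Gmnc-/-. Over all members the ratio of S-phase to G2/M UMIs was 0.185 and 0.199, the second 1.08 times the first (1.05 to 1.10). That excess was gone without the called doublets (1.0, 0.973 to 1.03). The choice of cells by Mki67 and Top2a, genes that peak in G2 and mitosis, fixes part of this phase mix, and the 2 libraries differed in the ratio of those genes, Mki67 UMIs being 0.395 of Top2a UMIs in the wild-type and 0.541 in the Gmnc-/- library.

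**Figure D1:**
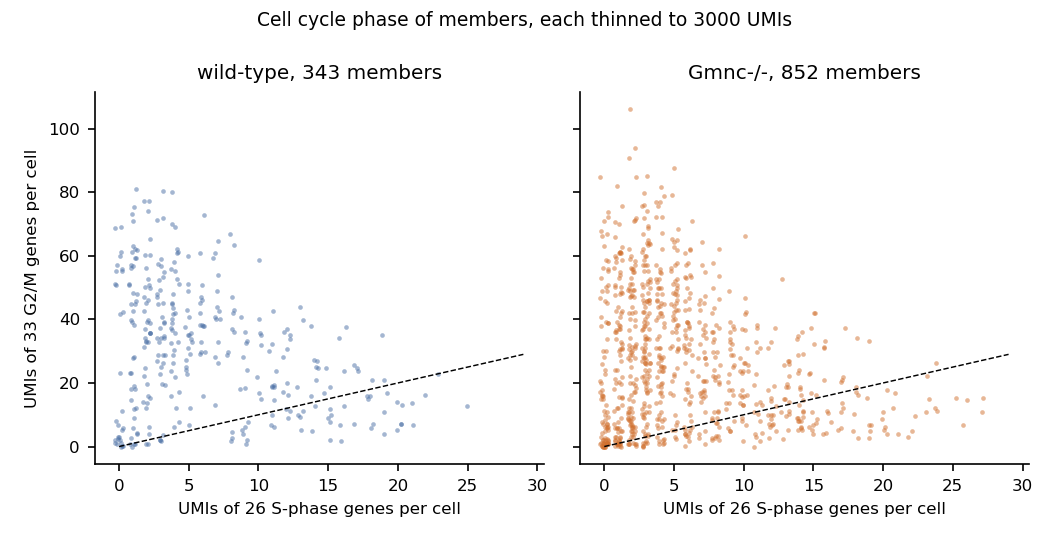
Each point is a member after thinning to 3000 UMIs, with its UMIs of 26 S-phase genes (x axis) and of 33 G2/M genes (y axis), shifted slightly at random for legibility. The dashed line marks equal numbers. In both panels most points lie above the line, 283 of 343 wild-type and 687 of 852 Gmnc-/- members, and a smaller arm with more S-phase UMIs lies below it.

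Genes outside the phase lists differed with phase as well. Members with more S-phase than G2/M UMIs were compared with the remaining members of their own library. Pairs of ratios here and below are for the wild-type and then the Gmnc-/- library. The split was made on the 2 lists, so Mcm3, a part of the helicase that opens DNA for replication, with ratios of 5.17 (3.42 to 7.8) and 3.74 (2.91 to 4.81), and Cdk1, with 0.326 (0.184 to 0.538) and 0.331 (0.21 to 0.501), only describe it. Ccnd1, the G1 cyclin, was in neither list and was higher in S-rich members of both libraries, with ratios of 2.89 (2.09 to 3.97) and 1.77 (1.39 to 2.23). Aldoc, a glycolytic enzyme of astroglia, was also higher, with 1.84 (1.41 to 2.39) and 1.57 (1.32 to 1.86). Fabp7 and Hes5 had ratios whose intervals include 1: Fabp7, a fatty acid binding protein of radial glia, had 0.998 (0.943 to 1.05) and 0.967 (0.917 to 1.02), and Hes5 had 1.01 (0.815 to 1.24) and 0.957 (0.809 to 1.13).

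The promoters of the G2/M genes are shown because a short element in them, the cell cycle homology region TTTGAA, together with CCAAT boxes, is known to bind complexes that time their expression. In the 200 bases before the gene start (RefSeq, GRCm38.p6), both strands searched, TTTGAA was found in 11 of the 29 G2/M genes that matched the table (37.9%), in 2 of 22 S-phase genes (9.09%), and in 14.4% of all 27025 genes with a promoter. CCAAT was found in 22 G2/M genes (75.9%), 12 S-phase genes (54.5%) and 32.7% of all genes, and also in 12 of 19 matched radial glia genes (63.2%), of which 1 held TTTGAA. TTTCCCGC or TTTGGCGC, forms of the E2F element, were found in 1 G2/M gene (3.45%), 6 S-phase genes (27.3%) and 1.29% of all genes. Among the 6169 matched genes at 20 CPM or more in members, the shares were 9.27% for TTTGAA, 37.9% for CCAAT and 2.79% for the E2F forms. These matches are descriptions and not sites of binding. Of the 4 G2/M genes past 1.5-fold lower in Gmnc-/- members, described next, 3 were in the table and follow, in lower case. Capitals mark TTTGAA and CCAAT, on either strand.
Cdk1, chr10:69352913-69353112, - strand: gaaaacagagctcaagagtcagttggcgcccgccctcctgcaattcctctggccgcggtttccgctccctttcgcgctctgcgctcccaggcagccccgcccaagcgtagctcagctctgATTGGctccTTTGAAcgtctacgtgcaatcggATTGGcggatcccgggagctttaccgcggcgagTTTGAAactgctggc
Ube2c, chr2:164769729-164769928, + strand: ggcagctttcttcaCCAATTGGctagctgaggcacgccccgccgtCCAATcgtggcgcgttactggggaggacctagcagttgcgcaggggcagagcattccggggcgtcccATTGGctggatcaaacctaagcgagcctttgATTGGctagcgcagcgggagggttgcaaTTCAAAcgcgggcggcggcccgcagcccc
Cks2, chr13:51645032-51645231, + strand: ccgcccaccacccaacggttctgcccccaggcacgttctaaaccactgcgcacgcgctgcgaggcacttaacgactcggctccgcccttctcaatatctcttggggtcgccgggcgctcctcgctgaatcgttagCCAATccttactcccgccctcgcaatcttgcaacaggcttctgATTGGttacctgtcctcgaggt
Cdk1 and Ube2c carry both elements, and Cks2 carries CCAAT and no TTTGAA in this window.

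G2/M genes did not move as a block between the libraries. A gene is counted below as higher or lower when it differed by 1.5-fold or more on a scale of log2(CPM + 5), which understates the change of low genes, and when it had 20 CPM or more in either library. Over all 7975 such genes, 9.2% were higher and 4.49% lower in Gmnc-/- members, and the median log2 ratio was 0.18. Of 33 G2/M genes none was past 1.5-fold higher and 4 were lower, with a median of -0.05. The 4 were Cdk1, the kinase that drives mitosis, at 312 and 145 CPM (ratio 0.465, 0.431 to 0.502), Cks2, its small binding partner, at 515 and 232 CPM (0.451, 0.425 to 0.478), Ube2c, which helps destroy cyclins, at 638 and 338 CPM (0.531, 0.504 to 0.558), and Aurkb, the kinase that corrects chromosome attachment, at 124 and 69.3 CPM (0.557, 0.497 to 0.624). Others were nearly level: Ccnb1, the mitotic cyclin, was at 223 and 202 CPM and Bub1, of the spindle checkpoint, at 96.7 and 97.3 CPM. Large kinetochore and motor genes were on the higher side without passing 1.5-fold, such as Cenpf at 707 and 944 CPM (1.33, 1.28 to 1.39) and Kif20b at 86.4 and 119 CPM (1.38, 1.23 to 1.54). The 4 lower genes had log2 ratios between -1.13 and -0.80 in all members and between -1.01 and -0.61 without called doublets.

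S-phase genes gave a like picture, with none of 23 measured genes higher, 1 lower and a median of 0.07. The gene past 1.5-fold was Dut, the dUTPase that keeps uracil out of DNA, at 251 and 158 CPM (0.628, 0.581 to 0.679). Tyms, which makes thymidylate, at 105 and 69.7 CPM and Rrm2, the ribonucleotide reductase subunit, at 148 and 104 CPM were on the lower side, and Uhrf1, which carries DNA methylation through replication, at 86.4 and 112 CPM on the higher. Among 12 genes of G1 control, 3 were past 1.5-fold lower, against 4.49% of all genes tested. They were inhibitors of cyclin-dependent kinases: Cdkn2c at 99.4 and 59.3 CPM, Cdkn2d at 105 and 64.6 CPM and Cdkn1c at 23.5 and 13.8 CPM. Of the wild-type Cdkn1c UMIs 17.1% lay in 1 barcode, without which the level was 19.7 CPM. Other inhibitors were nearly level, Cdkn1b at 155 and 164 CPM and Cdkn1a, under the 20 CPM limit, at 15.8 and 16.5 CPM. Ccnd2, the D cyclin typical of radial glia, was at 987 and 1189 CPM (1.2, 1.16 to 1.25) and Cdk6, its partner, at 165 and 228 CPM (1.38, 1.27 to 1.5). All 12 microcephaly genes were measured, the centrosome and spindle genes whose loss gives a small brain. None passed 1.5-fold, and their median was 0.37. Aspm, at the spindle poles, was at 116 and 163 CPM, and Nde1, the only one below its wild-type value, at 118 and 82.1 CPM.

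Histone genes were mostly lower. The list holds clustered genes and also H2afz, H2afx, H2afv and H1f0. Of 14 measured histone genes, none was past 1.5-fold higher and 6 lower, with a median of -0.43. Hist1h2ap was at 692 and 117 CPM (0.169, 0.157 to 0.181), Hist1h2ae at 569 and 215 CPM (0.378, 0.356 to 0.401) and H2afz, a variant histone, at 3379 and 2162 CPM (0.64, 0.627 to 0.653). Hist1h3c went against the rest, at 79.9 and 114 CPM. Clustered histone genes are near-identical copies, so the split of UMIs between them is uncertain, and their messages mostly lack a poly(A) tail. The lower levels were also found in cycling Dlx cells, with a list median of -0.65, and in cycling Eomes cells, with -0.40.

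**Figure D2:**
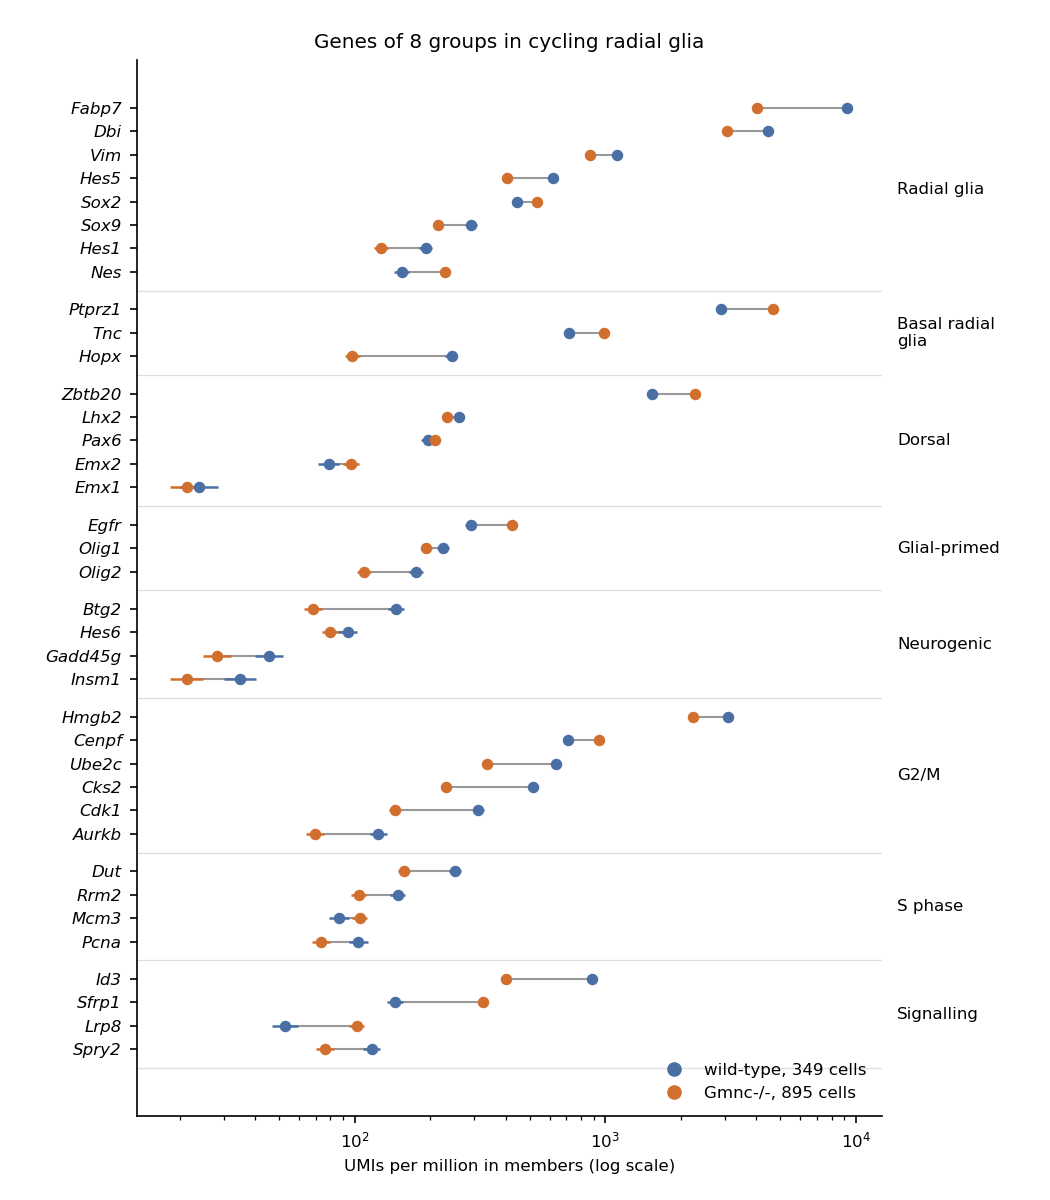
Level in CPM in wild-type and Gmnc-/- members for 37 genes of 8 groups, on a log axis, with exact 95% Poisson intervals where wider than the point. Hopx, Fabp7, Cks2 and Id3 lie furthest to the left of their wild-type value, and Sfrp1 and Lrp8 furthest to the right.

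The radial glia genes themselves were split by gene rather than moved together. Of 21 measured genes other than Slc1a3, none was past 1.5-fold higher and 2 lower, with a median of 0.03, under the median of all genes of 0.18. Fabp7 was at 9232 and 4044 CPM (ratio 0.438, 0.432 to 0.444), and Hes5 at 617 and 405 CPM (0.657, 0.625 to 0.689). Hes1, the other Notch effector, was at 192 and 127 CPM (0.664, 0.608 to 0.725), just short of 1.5-fold on the log2 scale. Vim was at 1111 and 869 CPM and Dbi, an acyl-CoA binding protein abundant in glia, at 4447 and 3061 CPM. Nes, the intermediate filament of neural stem cells, was at 154 and 229 CPM (1.49, 1.37 to 1.62) and Sox2 at 445 and 533 CPM (1.2, 1.14 to 1.26), both on the higher side. Non-cycling Slc1a3 cells of the same libraries shifted the same way: Fabp7 had a log2 ratio of -1.19 in members and -1.33 in those cells, Hes5 -0.60 and -0.69, and Nes 0.56 and 0.64. The median of the list turned sign in male-pattern cells, to -0.16, and after scaling by the median of ratios.

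Shares of members with a UMI, taken after every cell was thinned to 3000 UMIs, differed in the same direction for Hes5, Hes1 and Nes. Hes5 had a ratio of shares of 0.774, 0.655 to 0.916, Hes1 of 0.676, 0.542 to 0.846 and Nes of 1.47, 1.17 to 1.86. For Sox2 (1.1, 0.95 to 1.28), Vim (0.919, 0.801 to 1.06) and Sox9 (0.935, 0.779 to 1.12) the interval included 1, as it did for Fabp7 (0.946, 0.83 to 1.08), which nearly all members held. These intervals treat both numbers of cells as Poisson counts, which makes them too wide for shares this high. They therefore do not show that the shares were level. Fabp7 had no UMI in 4.08% of wild-type and 9.27% of Gmnc-/- members. The background in microglia barcodes was higher in the Gmnc-/- library for several genes, for example 5.99% and 10.3% for Nes and 37.9% and 64.1% for Zbtb20.

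Hopx, which marks outer radial glia and stem cells of the later hippocampus, was lower. It was at 243 and 97.9 CPM (ratio 0.402, 0.368 to 0.44) and had a UMI in 34.1% of wild-type and 17.96% of Gmnc-/- members, a ratio of shares of 0.526, 0.411 to 0.676, against 1.36% and 2.74% of microglia barcodes. The log2 ratio was -1.27 in members, -1.41 in non-cycling cells and -1.17 in members without called doublets. The other genes of the outer radial glia list did not follow it. Ptprz1, a receptor phosphatase, was past 1.5-fold higher at 2899.7 and 4659 CPM (1.61, 1.58 to 1.64), Tnc, a matrix protein of stem cell niches, was at 717 and 991 CPM and Itgb5, an integrin, at 62.8 and 83.96 CPM. Of 6 measured genes of that list 1 was higher and 1 lower, with a median of 0.27.

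Genes of dorsal identity were at like levels in both libraries. Of 11 measured dorsal genes none passed 1.5-fold, with a median of 0.13. Emx1 and Emx2, factors of cortical progenitors, were at 23.8 and 21.5 CPM and at 78.8 and 96.8 CPM. Pax6 was at 196 and 208 CPM, Lhx2 at 259.9 and 234 CPM and Zbtb20, a factor of hippocampus and astrocytes, at 1539 and 2282 CPM (1.48, 1.44 to 1.52). An Emx1 or Emx2 UMI was found in 25.7% of wild-type members (21.1 to 30.6%) and 28.2% of Gmnc-/- members (25.2 to 31.3%). Ventral factors were scarce: Nkx2-1 had a UMI in 0 of 343 and 0 of 852 thinned members (exact upper bounds 1.07% and 0.432%), Gsx1 likewise, and Gsx2 in 3 and 2. Of the 10 listed ventral genes, 2 reached 20 CPM, among them Olig2, which dorsal glial progenitors also use. A UMI of Gsx1, Gsx2, Nkx2-1 or Sp9 was found in 2.92% and 2.93%, the rule having barred Dlx1, Dlx2 and Gad2. Sp9 UMIs, which made up most of these, were in 4.63% and 9.44% of microglia barcodes, above the members' 2.04% and 2.7%. What the members' Sp9 UMIs came from was not tested.

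**Figure D3:**
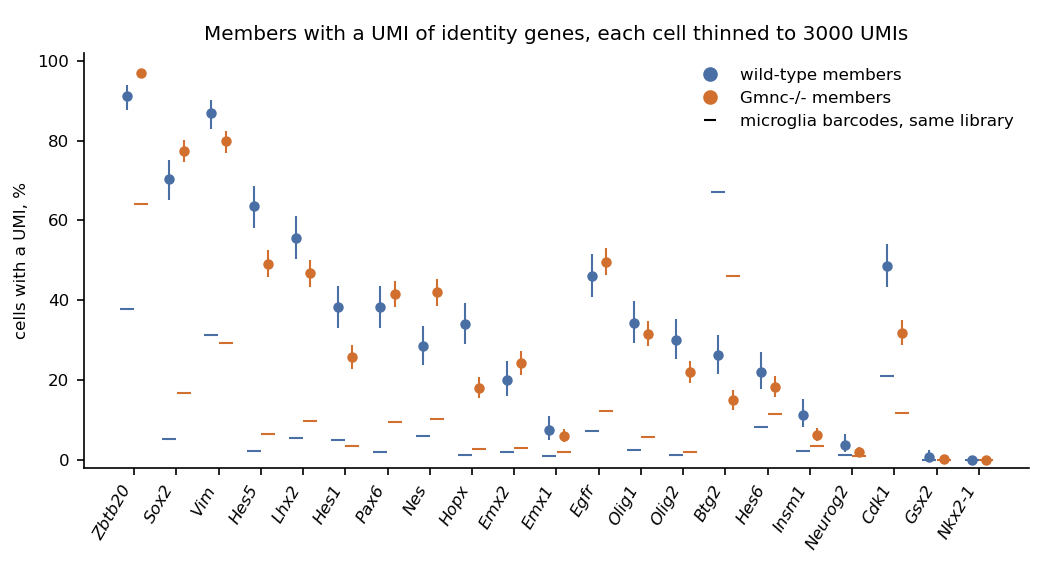
Share of members with a UMI of 21 genes after thinning every cell to 3000 UMIs (343 wild-type and 852 Gmnc-/- members), with exact 95% binomial intervals, and dashes for the share of microglia barcodes of the same library. Hes5, Hes1, Hopx, Olig2, Btg2 and Cdk1 were lower and Nes higher in the Gmnc-/- library, and Gsx2 and Nkx2-1 were at or near 0 in both.

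Genes of the glial lineage were common in these cells. Olig1, Olig2 or Egfr had a UMI in 62.7% of wild-type (57.3 to 67.8%) and 61.2% of Gmnc-/- members (57.8 to 64.4%). Egfr, the receptor of growth factors that expand glial progenitors, was at 290.0 and 426 CPM (ratio 1.47, 1.38 to 1.56). Olig2, which commits cells to the oligodendrocyte lineage, was at 176 and 109 CPM (0.619, 0.564 to 0.679) and Olig1 at 226 and 193 CPM. Of 5 measured genes of this list 1 was lower, and the median was -0.22 and 0.03 without called doublets. Olig2 moved from -0.67 to -0.49 on that change. Later oligodendrocyte precursor genes stayed low, with Sox10 at 2.86 and 2.47 CPM and Cspg4 at 5.91 and 10.1 CPM, the rule having barred Pdgfra.

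Members with and without Olig2 differed in the same direction in both libraries for the genes named next. After thinning, 103 of 343 wild-type (30.0%) and 187 of 852 Gmnc-/- members (21.9%) had an Olig2 UMI. At this depth a cell without an Olig2 UMI may still express the gene. Relative to the rest of their library, members with Olig2 had ratios of 2.27 (1.8 to 2.86) and 2.6 (2.3 to 2.94) for Egfr and 3.24 (2.48 to 4.25) and 2.33 (1.93 to 2.81) for Olig1. Hes6, which counters Hes1, had 2.29 (1.54 to 3.4) and 2.52 (1.89 to 3.34) and Cdk6 1.67 (1.22 to 2.28) and 1.51 (1.26 to 1.81). These 4 genes were higher with Olig2 in each library.

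The same members were lower in several genes that were chosen here after their values were seen. Sparc, a secreted matrix protein, had ratios of 0.335 (0.209 to 0.516) and 0.398 (0.303 to 0.515). Before thinning, 15.7% of wild-type and 7.94% of Gmnc-/- Sparc UMIs lay in 1 barcode, and 40.7% and 25.3% in 10. The counting intervals do not cover such clumping. Pax6 had 0.571 (0.387 to 0.823) and 0.531 (0.406 to 0.685), Lhx2 0.565 (0.415 to 0.758) and 0.612 (0.485 to 0.764), and Gli3, the repressor that keeps the cortex dorsal, 0.594 (0.428 to 0.812) and 0.539 (0.427 to 0.674). Hopx had 0.414 (0.289 to 0.578) and 0.608 (0.409 to 0.877), and Fabp7 0.734 (0.70 to 0.769) and 0.687 (0.652 to 0.724). Other genes of the radial glia list did not differ with Olig2 beyond counting error, with ratios of 0.93 (0.814 to 1.06) and 0.926 (0.833 to 1.03) for Vim, 0.934 (0.789 to 1.1) and 1.01 (0.873 to 1.17) for Hes5 and 1.13 (0.924 to 1.38) and 0.948 (0.832 to 1.08) for Sox2, whose intervals include 1. Without called doublets the ratio for Egfr was 2.26 and 2.5, and for Sparc 0.321 and 0.361.

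Spry2, an antagonist of growth factor receptors, had ratios of 2.29 (1.59 to 3.3) and 1.07 (0.752 to 1.5) in members with Olig2. Sfrp1, a secreted Wnt antagonist, had ratios of 0.271 (0.147 to 0.464) and 0.723 (0.601 to 0.864). For both genes the wild-type ratio was further from 1, and the difference between the libraries was not tested. Members with an Emx1 or Emx2 UMI were the counterpart. Relative to the rest, they had ratios of 1.63 (1.26 to 2.1) and 2.8 (2.15 to 3.66) for Hopx, 1.56 (1.21 to 1.99) and 1.5 (1.27 to 1.77) for Lhx2 and 0.658 (0.485 to 0.88) and 0.74 (0.64 to 0.854) for Egfr. An Olig1, Olig2 or Egfr UMI together with an Emx UMI was found in 14.3% of wild-type and 14.0% of Gmnc-/- members, so both programmes occurred within single barcodes. Barcodes that hold 2 cells can also give such pairs.

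Few neurogenic genes reached the level tested, 4 of 12. Of these, 3 were past 1.5-fold lower, against 4.49% of all genes tested, and the median of the 4 was -0.60. Btg2, an antiproliferative gene of progenitors about to make neurons, was at 146 and 68.2 CPM (ratio 0.467, 0.418 to 0.522), Gadd45g, a Notch-repressed stress gene, at 45.4 and 28.2 CPM (0.622, 0.516 to 0.749) and Insm1, a factor of basal progenitors, at 34.9 and 21.5 CPM (0.614, 0.496 to 0.76). Hes6 was at 93.7 and 79.8 CPM. Btg2 had a log2 ratio of -1.04 in members and -1.14 in non-cycling cells, and microglia barcodes held a Btg2 UMI more often than members did, in 67.03% and 46.1%. Neurog2, the proneural factor of cortex, had a UMI in 3.79% of wild-type and 2.0% of Gmnc-/- members, and Neurog1 in none of the thinned members. Dll1, the Notch ligand shown by cells that leave the stem cell state, was at 9.73 and 12.9 CPM.

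Astrocyte genes were measured for 14 of 16, with 1 higher, 1 lower and a median of 0.22, near that of all genes. Sparcl1, a secreted synapse protein, was the higher one at 335 and 568 CPM (1.7, 1.61 to 1.79). Id3, a target of BMP, was the lower one at 882 and 401 CPM (0.455, 0.435 to 0.476). Apoe, the lipid carrier, was at 1620.5 and 1563 CPM, and Slc1a2, the glutamate transporter GLT-1, at 423 and 615 CPM (1.46, 1.38 to 1.53). Aqp4, the water channel of astrocyte endfeet, was at 65.2 and 62.6 CPM and Gfap at 37.8 and 38.8 CPM. Apoe, Slc1a2, Aqp4 and Gfap were lower in members than in non-cycling cells of either library, where Apoe was at 5023 and 3652 CPM.

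Some target and feedback genes of the BMP and Fgf pathways were lower, and most genes of both lists lay within 1.5-fold. In the BMP list, 2 of 10 measured genes were lower, Id3 and Id1, the latter at 381 and 225 CPM (0.591, 0.554 to 0.63), and the median was 0.15. Id2, of the same family, was at 257 and 248 CPM and the receptor Bmpr1a at 231 and 296 CPM. In the Fgf list, 3 of 11 were lower and none higher, all feedback inhibitors of the pathway: Spry1 at 20.4 and 7.4 CPM (0.362, 0.26 to 0.502), Spry2 at 117 and 76.2 CPM (0.651, 0.582 to 0.73) and Dusp6 at 26.7 and 14.2 CPM (0.531, 0.411 to 0.684). Another inhibitor, Spred1, was at 127 and 154 CPM, the receptor Fgfr1 at 118 and 144 CPM, the receptor Fgfr3 at 73.6 and 87.8 CPM and the target factors Etv4 and Etv5 at 73.3 and 90.98 CPM and at 121 and 139 CPM. Of the Notch list, 1 of 15 was lower, Hes5, with a median of 0.00. The receptor Notch1 was at 193 and 216 CPM and Nrarp, a feedback target, at 63.1 and 47.7 CPM.

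Among the Notch, Wnt, Fgf, Shh and BMP lists, Wnt was the only one with genes past 1.5-fold higher, 3 of 12, and it had none lower. Sfrp1 was at 145 and 324 CPM (ratio 2.24, 2.06 to 2.43), Wnt7b, a ligand, at 20.6 and 36.00 CPM (1.75, 1.4 to 2.2) and Fzd3, a receptor, at 82.4 and 131 CPM (1.59, 1.42 to 1.78). The median was 0.32, and 0.04 after each gene was set against genes of its own length. Sfrp1 had a log2 ratio of 1.14 in members, 1.0 in non-cycling cells and 1.18 without called doublets. Axin2, the feedback target of the pathway, was at 37.8 and 56.5 CPM. None of 9 measured genes of the Shh list passed 1.5-fold (median 0.18).

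All 12 genes of the Reelin pathway were measured, 2 past 1.5-fold higher (Lrp8 and Crkl) and 1 lower (Reln), with a median of 0.26. Lrp8, one of the receptors, was at 52.7 and 102 CPM (1.94, 1.69 to 2.23), and Vldlr, the other receptor, at 16.6 and 22.6 CPM (1.36, 1.05 to 1.78). The adaptor Dab1 was at 354 and 438 CPM and Crkl, further downstream, at 20.03 and 32.8 CPM (1.64, 1.3 to 2.07). Lrp8 had a log2 ratio of 0.82 in non-cycling cells and 0.57 in members without doublets, and a UMI in 13.99% of wild-type and 23.4% of Gmnc-/- thinned members against 4.36% and 18.4% of microglia barcodes. Reln itself, made by Cajal-Retzius cells and some interneurons and not by radial glia, had 195 UMIs in wild-type and 25 in Gmnc-/- members (37.2 and 3.08 CPM). Of the wild-type UMIs 161 (82.6%) lay in 1 barcode, without which the level was 6.52 CPM, and Trp73 had 7 UMIs in wild-type members, 5 of them in 1 barcode.

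Cells with a Foxj1 UMI were barred by the rule, so low levels of multiciliated cell genes in members follow from the selection. A Foxj1 UMI was held by 120 wild-type and 94 Gmnc-/- cells that met both minimums, and some may hold another barred gene too. They were among 570 and 1686 cells left out by all barred genes, so the Foxj1 bar touched a larger part of the wild-type cells. Its effect on the member share and on the gene ratios was not tested. Of 14 listed genes of the programme that Gmnc starts, 3 reached 20 CPM, all with wider roles, and none passed 1.5-fold. Mcidas had no UMI in members of either library, and Ccno, which follows it, was at 0.191 and 0.986 CPM. Myb, a factor of both dividing and multiciliated cells, was at 7.25 and 11.5 CPM. Rfx3, a ciliary factor that most neural progenitors express, was at 148 and 178 CPM, E2f5, a cell cycle factor, at 109 and 106 CPM and Gmnn, the geminin that restrains replication licensing, at 119 and 99.1 CPM.

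Adhesion and matrix genes were mostly on the higher side within 1.5-fold. Over all genes tested 9.2% were higher, and the median was 0.18. Of 10 apical junction genes 1 was higher, Mllt4 (afadin), at 122 and 189 CPM (1.55, 1.41 to 1.7), and the median was 0.28. Cdh2, the N-cadherin of the ventricular surface, was at 435 and 544 CPM and Cdc42, a polarity switch, at 333 and 272 CPM. Of 11 matrix and secreted genes 1 was higher, Vcan, a proteoglycan, at 106 and 186 CPM (1.75, 1.59 to 1.94), with a median of 0.25. Set against genes of their own length, the medians were -0.04 for apical junction and 0.03 for matrix and secreted genes. Temporal factors gave none of 8 past 1.5-fold: Nfia was at 1566 and 1567 CPM, Nfix, which ends the neurogenic period, at 552 and 778 CPM (1.41, 1.35 to 1.47) and Igf2bp3, an early factor, at 93.3 and 134 CPM (1.44, 1.29 to 1.6).

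Housekeeping lists were lower. Of 80 measured ribosomal protein genes none was higher and 16 lower (median -0.33), and of 80 genes of oxidative phosphorylation none was higher and 20 lower (median -0.40). In glycolysis 1 of 12 was higher, Hk1 at 16.2 and 27.5 CPM, and 1 lower, Eno1 at 221 and 109 CPM (0.495, 0.453 to 0.54). Of 10 immediate early genes, which dissociation can induce, none was higher and 2 lower, Junb at 111 and 51.9 CPM and Klf2 at 36.2 and 14.2 CPM, while Fos was at 535 and 489 CPM and Egr1 at 447 and 525 CPM. Of the wild-type Klf2 UMIs 46.3% lay in 1 barcode, and without it the level was 19.7 CPM. None of 6 measured p53 targets passed 1.5-fold.

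Much of this pattern went with gene length. Across 7964 tested genes with a length in GENCODE vM21, longer genes had higher log2 ratios (Spearman's rho 0.527, across genes, which are not independent replicates). In 10 equal groups of genes by length, the shortest had a median of -0.26 and the longest one of 0.38, and non-cycling cells gave -0.27 and 0.35. Set against genes of their own length, the medians became -0.08 for radial glia, -0.01 for microcephaly, -0.09 for ribosomal protein, -0.35 for histone and -0.33 for neurogenic genes. Microcephaly and ribosomal protein genes then lay near 0, while histone genes and the few measured neurogenic genes stayed low.

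**Figure D4:**
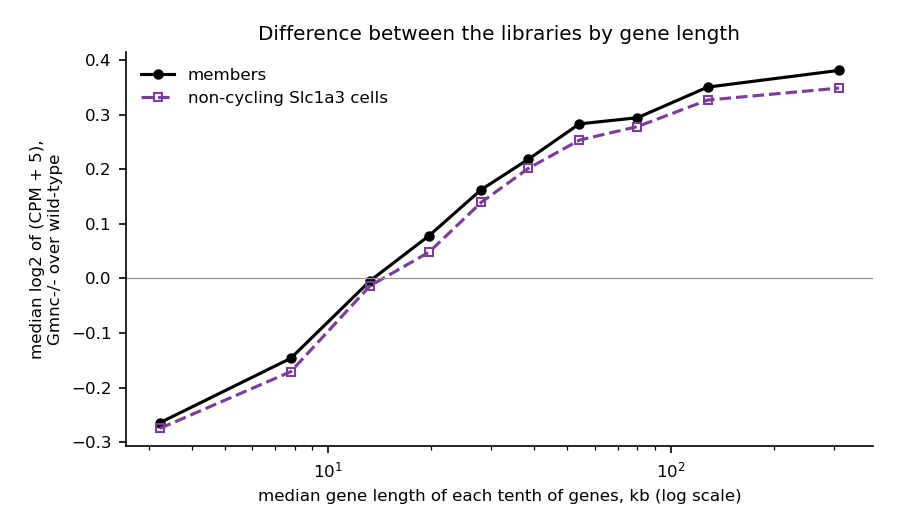
Median log2 ratio of (CPM + 5), Gmnc-/- over wild-type, in 10 equal groups of the tested genes by gene length (log axis), for members and for non-cycling Slc1a3 cells. Both lines climb from -0.26 and -0.27 in the shortest group to 0.38 and 0.35 in the longest.

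**Figure D5:**
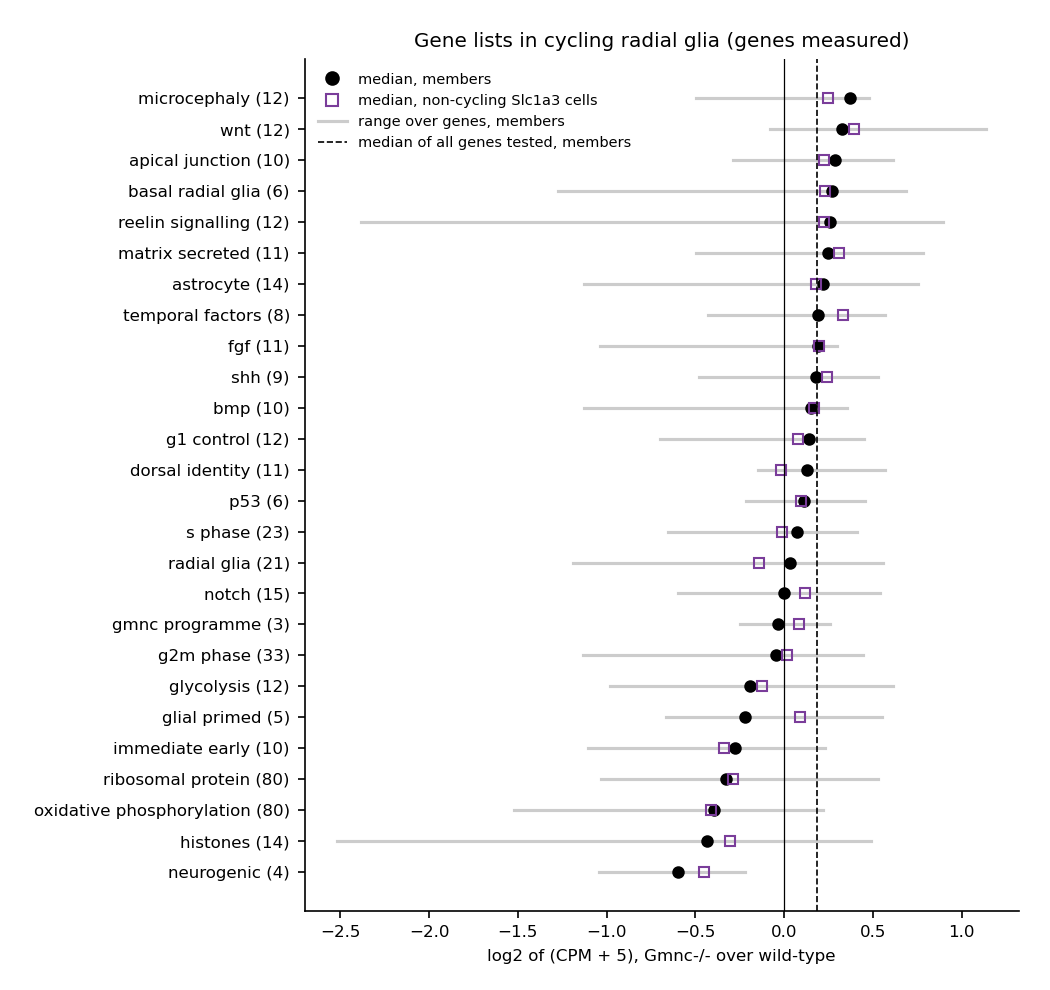
Median log2 ratio of (CPM + 5) of each gene list in members (circles) and in non-cycling Slc1a3 cells (squares), with the range over genes of the list in members and the median of all tested genes (0.18, dashed). The number of genes measured stands beside each name. The highest median is that of microcephaly genes at 0.37 and the lowest that of neurogenic genes at -0.60.

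Over all 7975 tested genes, 734 were higher and 358 lower in Gmnc-/- members by 1.5-fold or more. When the libraries were scaled by the median of ratios, which takes the median shift of 0.18 away, the split turned to 271 higher and 760 lower, so the balance of directions depends on the scaling. Non-cycling cells had the same sign as members in 7073 of the genes, and these cells come from the same 2 libraries.

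Without the called doublets, several list genes named above lay inside 1.5-fold, with the same sign. The log2 ratio went from -0.60 to -0.49 for Hes5, from -0.67 to -0.49 for Olig2, from -0.59 to -0.47 for Spry2 and from 0.68 to 0.53 for Wnt7b. In the Reelin list it went from 0.89 to 0.57 for Lrp8, from 0.59 to 0.45 for Crkl and from -2.38 to -0.57 for Reln, so none of that list stayed past 1.5-fold. Cdkn2d (-0.66 to -0.54), H2afz (-0.64 to -0.52), Mllt4 (0.61 to 0.53) and Hk1 (0.61 to 0.43) also crossed the limit. Fabp7 (-1.13), Hopx (-1.17), Cdk1 (-1.01), Id3 (-0.98), Btg2 (-0.99) and Sfrp1 (1.18) stayed past it.

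Among genes with 50 CPM or more, the largest ratios included long genes of neurons. Rbfox1, a splicing factor, was at 62.6 and 227 CPM (ratio 3.62, 3.22 to 4.09), Myt1l, a neuronal repressor, at 37.6 and 140.3 CPM (3.73, 3.21 to 4.36) and Plxna4, a guidance receptor, at 44.5 and 129 CPM (2.9, 2.51 to 3.35). Without called doublets their log2 ratios of 1.78, 1.77 and 1.44 became 0.52, 0.79 and 0.54. The same drop was seen for Srrm4, a neuronal splicing factor (1.38 to 0.44), Ppfia2, of synapses (1.36 to 0.42), Wbscr17 (1.31 to 0.32), Hs6st3 (1.26 to 0.55), Pak7 (1.26 to 0.56) and Kcnb2 (1.25 to 0.68). Filip1l kept its ratio, at 21.9 and 100.2 CPM (log2 1.97, and 2.11 without doublets), and so did Phykpl, a mitochondrial enzyme, at 19.8 and 60.3 CPM (1.39 and 1.46). Spp1, a secreted protein of microglia, headed the list at 10.9 and 83.1 CPM, but 479 of its 674 Gmnc-/- UMIs lay in 1 barcode, and without it the level was 24.1 CPM.

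The lowest ratios held in members without doublets as well. Cdk8, a kinase of the Mediator complex, was at 367 and 125 CPM (ratio 0.34, 0.315 to 0.367), Pfn1, which feeds actin, at 343 and 119 CPM (0.347, 0.32 to 0.375) and Hmgn2, a nucleosome binding protein, at 856 and 322 CPM (0.377, 0.359 to 0.395). Sdhd, of succinate dehydrogenase, was at 57.6 and 16.8 CPM, Lsm5, of the spliceosome, at 211 and 80.4 CPM and the non-coding Snhg6 at 61.4 and 18.7 CPM. In non-cycling cells their log2 ratios were -1.72, -1.39, -1.26, -1.36, -1.29 and -1.10, each as low or nearly as low as in members. The remaining genes of the lowest 12 were 5 histone genes and Ttr, the thyroxine carrier of choroid plexus, at 76.7 and 2.22 CPM. Of 402 wild-type Ttr UMIs 338 lay in 1 barcode, without which the level was 12.2 CPM.

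Markers of other cell types differed between the members of the 2 libraries. All 8 excitatory neuron markers were present, 6 of 7 measured were higher, and their summed level was 239.8 CPM in wild-type and 463 CPM in Gmnc-/- members. All 4 measured microglia markers were higher, with sums of 104 and 222 CPM. Members called doublets held more of both: 690 and 791 CPM of neuron markers against 206 and 275 CPM in members not called, and 426 and 516 CPM of microglia markers against 79.9 and 53.7 CPM. Without called doublets the median log2 ratio of the neuron markers went from 0.99 to 0.31 and that of the microglia markers from 0.92 to -0.68. Erythroid genes summed to 1909 and 2510.3 CPM, with 67.1% of wild-type Hbb-bs UMIs in 1 barcode. Of the ependymal markers, 3 of 6 had no UMI in wild-type and 2 in Gmnc-/- members, and their sums were 8.2 and 4.68 CPM. Other sums were smaller in Gmnc-/- members: 80.7 and 8.88 CPM for choroid plexus (Ttr for the most part), 49.6 and 15.2 CPM for Cajal-Retzius cells (Reln for the most part), 89.9 and 58.9 CPM for endothelium, 69.3 and 53.1 CPM for mural cells, 416 and 322 CPM for oligodendrocyte precursors and 71.4 and 65.8 CPM for intermediate progenitors. The endothelial marker Cldn5 had 71.6% of its wild-type and 38.4% of its Gmnc-/- UMIs in 1 barcode. Without that barcode in each library Cldn5 was at 14.9 and 23.6 CPM, the reverse direction. Flt1, likewise without its top barcodes, was still lower, at 10.6 and 3.84 CPM. Sums for GABAergic cells were 86.4 and 94.2 CPM, for meningeal cells 17.4 and 17.8 CPM and for astrocytes 728 and 981 CPM. The part of these markers in the differences above was not tested beyond the values without doublets.

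A few genes differed more between the libraries in members than in non-cycling Slc1a3 cells, or less. C1qa and C1qb, complement genes of microglia, had log2 ratios of 0.89 and 0.95 in members, -0.31 and -0.39 in non-cycling cells, and -0.95 and -0.79 in members without doublets. Rbfox1, Myt1l and Hs6st3, named above, also differed more in members. On the other side, Akap12, a kinase anchor, had 0.30 in members and 0.99 in non-cycling cells, and Csrp2, a LIM protein, -0.35 and 0.25. Meg3, an imprinted non-coding RNA of neurons, had 0.05 and 0.72, Naaladl2 -0.10 and 0.37, and Cntnap2, an axonal adhesion gene, -0.63 and -0.06. In the wild-type library 57.99% of the members' Cntnap2 UMIs and 28.9% of their Meg3 UMIs lay in 1 barcode.

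Set against non-cycling Slc1a3 cells, a contrast that the rule itself made, members were highest in Cenpf, Cdca8, Ube2c, Tpx2, Kif11, Cenpe, Ccnb1 and Birc5, all genes of mitosis. Cenpf, at the kinetochore, was at 707 CPM in wild-type members and 12.9 CPM in wild-type non-cycling cells. They were lowest in Ptgds, a prostaglandin synthase, at 18.9 CPM in wild-type members against 155 CPM, and at 43.8 against 231 CPM in the Gmnc-/- library. Of 355 Ptgds UMIs in Gmnc-/- members 214 lay in 1 barcode. Aldoc, the aldolase of astrocytes, came next. It was at 282 CPM in wild-type members against 1063 CPM, and at 297 against 852 CPM in the Gmnc-/- library. Clu, a secreted chaperone, was at 101 against 294 CPM and at 118 against 322 CPM. S100a6, Crym, Trpm3 and Entpd2 were also among the lowest 8.

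Among themselves the members varied most in a few abundant genes. Over 2676 genes with a mean of 0.2 UMIs or more in cells thinned to 3000 UMIs, the median ratio of variance to mean was 1.11 in each library, where 1 is the value of counting noise. Fabp7 had a ratio of 22.6 in wild-type and 12.5 in Gmnc-/- members, with a mean of 28.3 and 12.2 UMIs per cell. Malat1, a nuclear non-coding RNA, had 19.4 and 15.9, and Nrg1, a growth factor for Erbb receptors, 11.3 and 11.9. Apoe, Cst3 and Ptn, secreted by astroglia, were also among the 10 most variable. Ctsd, a lysosomal protease that microglia hold in quantity, had no UMI in 83.97% and 76.5% of members and up to 28 and 26 UMIs in the rest. Tenm2, Kcnip4 and Dcc, long genes of neurons, completed the list. Tenm2 had no UMI in 87.2% and 79.3% of members.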

How the data were processed

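Single-cell UMI counts per gene and barcode were deposited, made from 10x Next GEM 3′ v3.1 libraries and aligned to mm10, per the labels' protocols, with Cell Ranger 7.1.0, per the submitters' processing notes. Each genotype was 1 library, pooled from 4 animals of 2 litters. The deposited barcodes, each with 500 or more UMIs, numbered 13033 and 27663, with 88905819 and 155482657 UMIs.

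Barcodes with 1000 or more UMIs and under 10% mitochondrial UMIs were kept, and members were chosen by the stated rule, with no clustering. Members and gene lists were chosen with earlier results of these data known. Counts of members were summed per library and scaled to CPM, and log2 ratios used a prior of 5 CPM. Intervals were exact (Poisson, Clopper-Pearson or conditional binomial, scipy 1.17.1). Shares used cells thinned to 3000 UMIs, and 6 and 43 shallower members were dropped there. Doublets were called with Scrublet (scanpy 1.11.5) and kept, with values also given without them. It marked 4.49% of wild-type and 22.5% of Gmnc-/- kept cells, where 10.4% and 22.1% were expected from the numbers of barcodes. The score thresholds, set per library, were 0.302 and 0.262. Gene lengths came from GENCODE vM21. The calculation of ratios was checked on simulated counts with 200 changed genes, and all 200 had the right direction. Such counts cannot show what doublets or the spread between animals do to the real ratios.

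Genes were named from the lists or by size: the 12 highest and 12 lowest ratios at 50 CPM or more, the 6 at either end of the difference from non-cycling cells, the 8 at either end of members over non-cycling cells and the 10 most variable. Haemoglobin, mitochondrial, ribosomal protein, sex-linked pattern, predicted and rule genes were left out of the ranking by size, and a few genes that the rule names are not reported here. Alternatives covered the cell filter, the rule's limits, doublets, neuron markers, the sex pattern of cells, thinning, scaling, the prior, the level minimum and the fold. No sample was compared by a test, because each group held 1 library.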

Additional observations from a re-analysis of the deposited data

Results flagged for a closer look

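Reporter sequences in the reference were counted although the labels of these samples name no reporter. Stop-Ai9, the stop cassette of the Ai9 reporter allele, was at 614 CPM in wild-type and 194 CPM in Gmnc-/- members, and had a UMI in 77.4% and 44.6% of them. Tomato, the fluorescent protein behind that cassette, was at 26.3 and 13.4 CPM. Neither sequence enters a comparison above, and what they came from was not tested.

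Fcer1g, a receptor subunit of microglia and other immune cells, was higher in Gmnc-/- than in wild-type members and lower in Gmnc-/- than in wild-type non-cycling Slc1a3 cells, the 2 log2 ratios differing by 1.43. With 1 library per genotype the difference was not tested. Fcer1g was at 18.5 and 34.5 CPM in members, and its log2 ratio was 0.75 in members, -0.68 in non-cycling cells and -0.67 in members without called doublets.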

How the results depend on the processing

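The ratio of member shares was 1.07 and lay between 0.847 (2000 UMIs, 5% mitochondrial) and 1.16 over the settings, with 0.881 when cycling cells were taken by 6 or more G2/M genes. Genes past 1.5-fold higher numbered 734, against 1167 (thinned before the rule), 271 (median-of-ratios scaling), 431 (50 CPM minimum) and 81 (2-fold). Genes lower numbered 358, against 760 (median-of-ratios scaling) and 56 (2-fold). The S to G2/M ratio of 1.08 was 1.0 without doublets, 1.05 with 4 or more cycling UMIs, 0.993 by G2/M genes, 1.12 when thinned, 1.03 without cells holding neuron markers, 1.05 in female-pattern and 1.14 in male-pattern cells. With doublets and neuron-marker cells both removed, an alternative chosen after seeing the data, it was 0.963. The cause of these changes was not tested.

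Among the genes named by ratio or by difference from non-cycling cells and reported here, the log2 ratio changed sign for 7. Genes named over non-cycling cells or by variability were not in that count, and some of them turned as well. In male-pattern cells Ptgds (1.03) was -0.43, Kcnip4 (0.49) was -0.997 and Crym (-0.60) was 0.26. Ccnb1 (-0.14) was 0.08 without doublets. The 7 were as follows. Spp1 (2.47) was -0.94 without doublets, -0.10 in female-pattern cells, -0.53 with doublets and neuron-marker cells removed and -0.13 as a mean over cells. C1qb (0.95) and C1qa (0.89) were -0.79 and -0.95 without doublets. Cntnap2 (-0.63) was 0.16 without doublets, 0.42 when thinned and 0.67 in female-pattern cells. Meg3 (0.05) ranged from -1.33 to 0.65, Naaladl2 (-0.10) from -0.41 to 0.20 and Csrp2 (-0.35) from -0.54 to 0.21. Over 17 settings, the list medians of neurogenic (-0.79 to -0.33), histone (-0.64 to -0.28), ribosomal protein (-0.53 to -0.09) and oxidative phosphorylation genes (-0.60 to -0.21) kept their sign, as did Wnt (0.04 to 0.42). That of radial glia (-0.17 to 0.08) turned under 4 and that of G2/M genes (-0.25 to 0.15) under 5.

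No paired analysis was possible because each genotype was 1 library, and leaving one out leaves no comparison. The members' 5241493 and 8111232 UMIs set the counting intervals, which do not hold the spread between animals that pooling hides. Depth and doublet rate differ with genotype. Within female- and male-pattern cells the log2 ratio was -1.24 and -0.90 for Fabp7, -1.11 and -1.63 for Hopx, -1.54 and -1.65 for Cdk8 and -2.47 and -2.43 for Hist1h2ap.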
